A study of Homo sapiens with 12 samples.

Results

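HCP5, UTP3 and VAMP3 are the 3 genes followed here, through the open chromatin called within 10 kb of each. The members are the ATAC-seq peaks that overlap the GRCh38 RefSeq span of a gene or lie within 10 kb of it. There were 105 such peaks among 4231443 peaks over all 12 libraries. Of these, 39 lay around HCP5, 25 around UTP3 and 41 around VAMP3. A peak was called the promoter peak where it overlapped the RefSeq promoter window, which runs from 250 bases before a gene's start to 50 bases after it.

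ATAC-seq inserts sequencing adapters into accessible DNA, so a peak marks a stretch that the transposase could reach. KYSE150 and KYSE510 are established cell lines from squamous carcinoma of the human oesophagus. Each was assayed as control cells and as cells in which HCP5 was silenced. Each of the 4 groups had 3 libraries. Cells grew in RPMI-1640 with fetal bovine serum. Library titles begin with C for control and Sh for silenced cells, and the labels spell out neither the means of silencing nor the control. They do not say that the libraries of a group came from separate cultures, so p-values measure the spread between these libraries only. The series title links HCP5 to apoptosis and to transcription of c-Myc through UTP3. Transcript levels were not analysed here, so the silencing itself was not checked.

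HCP5 is a long non-coding RNA gene in the major histocompatibility complex class I region. UTP3 encodes a nucleolar protein of the small subunit processome, the assembly that processes the precursor of small-subunit ribosomal RNA. VAMP3, also called cellubrevin, encodes a vesicle SNARE, a membrane protein that pairs with partner SNAREs on a target membrane to drive fusion, and it serves in recycling from endosomes to the cell surface. Promoters of active genes usually lie in open chromatin, but an accessible promoter is not a measure of transcript level.

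HCP5 spans chr6:31463180-31465809, a lncRNA gene of 2630 bp on the plus strand. UTP3 spans chr4:70688532-70690551, 2020 bp on the plus strand. VAMP3 spans chr1:7771296-7781432, 10137 bp on the plus strand. The 3 promoter windows are shown because every result on a promoter peak below was read over them. They were taken from RefSeq on GRCh38.p14, at chr6:31462930-31463229, chr4:70688282-70688581 and chr1:7771046-7771345, and run 5′ to 3′ on the plus strand. Capitals mark each match, on either strand, to a set of 6 motifs.
HCP5: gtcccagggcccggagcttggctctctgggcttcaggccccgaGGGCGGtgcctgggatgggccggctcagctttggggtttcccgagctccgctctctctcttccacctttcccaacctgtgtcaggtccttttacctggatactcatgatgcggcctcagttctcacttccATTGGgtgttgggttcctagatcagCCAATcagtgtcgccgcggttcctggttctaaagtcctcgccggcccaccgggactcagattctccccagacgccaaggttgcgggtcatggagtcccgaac
UTP3: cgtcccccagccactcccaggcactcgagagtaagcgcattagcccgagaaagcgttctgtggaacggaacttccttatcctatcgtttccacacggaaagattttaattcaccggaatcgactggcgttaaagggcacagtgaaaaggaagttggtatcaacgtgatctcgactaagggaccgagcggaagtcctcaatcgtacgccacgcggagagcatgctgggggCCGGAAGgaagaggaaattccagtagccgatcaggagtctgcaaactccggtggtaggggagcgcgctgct
VAMP3: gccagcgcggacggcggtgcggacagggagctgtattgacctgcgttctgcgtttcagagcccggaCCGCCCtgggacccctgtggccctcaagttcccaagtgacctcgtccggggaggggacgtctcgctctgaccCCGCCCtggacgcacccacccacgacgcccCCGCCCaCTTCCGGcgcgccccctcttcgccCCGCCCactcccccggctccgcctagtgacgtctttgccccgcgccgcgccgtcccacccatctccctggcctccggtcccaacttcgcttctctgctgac

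The motifs searched were CACGTG (the E-box bound by MYC and MAX), TGANTCA (AP-1), CCGGAAG (ETS family), GGGCGG (the GC box), CCAAT (the CCAAT box) and TATAAA (the TATA box). The HCP5 window held 1 GC box, with its first base at -207 from the gene start, and 2 CCAAT boxes at -77 and -52. The UTP3 window held 1 ETS motif at -21. The VAMP3 window held 1 ETS motif at -75 and 4 GC boxes at -184, -112, -82 and -51. The E-box, AP-1 and TATA motifs matched in none of the 3 windows. Among 27305 gene promoters of the same length, 7.43% held CACGTG, 7.76% TGANTCA, 10.7% CCGGAAG, 44.6% GGGCGG, 35.7% CCAAT and 12% TATAAA. A match describes letters and does not show binding. The VAMP3 window was the richest of the 3 in G and C, at 71.7%, against 61.3% for HCP5, 55% for UTP3 and a median of 58.3% over all windows. It held 33 CpG dinucleotides, against 24 in UTP3, 16 in HCP5 and a median of 14.

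The lists of the 2 lines differed in kind. KYSE150 libraries held 547125 to 630780 peaks, of which 80.8% to 82.5% had a height of 1, and 78336 to 97992 peaks had an FDR of at most 0.05. KYSE510 libraries held 115868 to 135948 peaks with no height under 2, and 95740 to 113528 had an FDR of at most 0.05. The height is the deposited Pileup, the whole number of overlapping fragments at 1 position of the peak. It is not normalised between libraries and the depth is unknown, so the line and the calling or depth of its libraries cannot be told apart. In KYSE150 the silenced libraries had fewer peaks at that FDR (91993, 87513 and 78336) than the control libraries (96529, 97489 and 97992). Of 8 squamous epithelial markers, 6 had a promoter window, and KRT5 and DSG3 had a promoter peak in all 6 libraries of each line. SOX2, PERP and SFN also did in KYSE510, while the first listed start of TP63 had none there. Of 8 lymphoid and myeloid markers, 4 had a window. Their heights summed to between 0 and 7 in KYSE150 libraries. In KYSE510 the sums ran from 8 to 16, where CD14 had a peak in every library and PTPRC, CD79A and JCHAIN were at 0. Fibroblast and endothelial markers were not analysed here.

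UTP3 was the only one of the 3 genes with a promoter peak in all 12 libraries. In KYSE150 its heights were 16, 17 and 14 in the control libraries and 10, 13 and 23 in the silenced libraries. The groups overlapped, with the silenced libraries lying on either side of the controls. The means were 15.7 ± 1.53 (SD, n = 3) and 15.3 ± 6.81 (SD, n = 3), and the two-sided exact permutation test gave p = 1. In KYSE510 the heights were 24, 12 and 18 in control and 18, 24 and 25 in silenced libraries. These groups overlapped as well, with the lowest value in a control library. The means were 18 ± 6 and 22.3 ± 3.79 (SD, n = 3 each), with an exact permutation p = 0.5. With 3 libraries against 3 this test cannot go below 0.1.

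HCP5 had a promoter peak in 10 of the 12 libraries, with heights of 0 to 4 in KYSE150 and 8 to 23 in KYSE510. In KYSE150 control libraries 1 and 2 had no peak and control library 3 had a height of 3, while the silenced libraries had heights of 2, 3 and 4. A peak was thus called in 1 of 3 control and 3 of 3 silenced libraries (Fisher's exact test, two-sided p = 0.4). Counting a library without a peak as 0, the means were 1 ± 1.73 and 3 ± 1 (SD, n = 3 each; exact permutation p = 0.3). The groups overlapped at 3, and every one of these peaks had an FDR of at most 0.05. A promoter peak in 1 or fewer control and in all 3 silenced libraries of KYSE150 occurred at 1.18% of the 18513 genes with any promoter peak in that line. These include 7743 genes with a peak in all 6 libraries, which cannot show it. In KYSE510 the HCP5 heights were 16, 17 and 8 in control and 23, 9 and 20 in silenced libraries. Each group there held 1 low library and 2 high ones. The means were 13.7 ± 4.93 and 17.3 ± 7.37 (SD, n = 3 each), with an exact permutation p = 0.5.

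VAMP3 had a promoter peak in 11 of the 12 libraries, and it was the only one of the 3 with a lower mean height after silencing in both lines. In KYSE150 its heights were 3, 2 and 2 in control libraries, while silenced library 1 had no peak and silenced libraries 2 and 3 had a height of 1. All 3 silenced libraries lay below all 3 controls. The means were 2.33 ± 0.577 and 0.667 ± 0.577 (SD, n = 3 each), and the exact permutation test gave p = 0.1, the smallest it can give. The background for this order is 5.59%, or 1034 of the 18513 genes with any promoter peak in the line. At an FDR of at most 0.05 the VAMP3 promoter was called in 3 of 3 control and 0 of 3 silenced libraries (Fisher's exact test, two-sided p = 0.1). The FDR was 0.0016, 0.0393 and 0.037 in the control libraries and 0.571 and 0.44 in the silenced libraries that had a peak, so 2 of the controls lay close to the threshold. That pattern, read off the VAMP3 values, occurred at 0.439% of 12072 genes with such a peak in 1 or more libraries. These include 6977 genes with such a peak in all 6 libraries, which cannot show it. The share among promoters as low as that of VAMP3 was not tested. The median promoter height over the 7743 genes with a peak in all 6 KYSE150 libraries was 13, 12 and 13 in control and 12, 11 and 9 in silenced libraries. These medians, and the numbers of peaks at an FDR of at most 0.05 given above, were lower on average in the silenced libraries, as the VAMP3 height was. Divided by the library's median, the VAMP3 heights were 0.231, 0.167 and 0.154 in control and 0, 0.0909 and 0.111 in silenced libraries (exact permutation p = 0.1). Beyond this scaling, the part of the medians and peak numbers in the result was not tested. The total number of peaks was not lower in every silenced library, since silenced library 2 had the most, 630780.

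In KYSE510 the VAMP3 heights were 15, 8 and 7 in control and 8, 3 and 6 in silenced libraries. The groups met at 8. The means were 10 ± 4.36 and 5.67 ± 2.52 (SD, n = 3 each), with an exact permutation p = 0.3. Non-overlapping lower heights after silencing, which VAMP3 did not show in this line, occurred at 4.23% of 13773 genes.

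**Figure D1:**
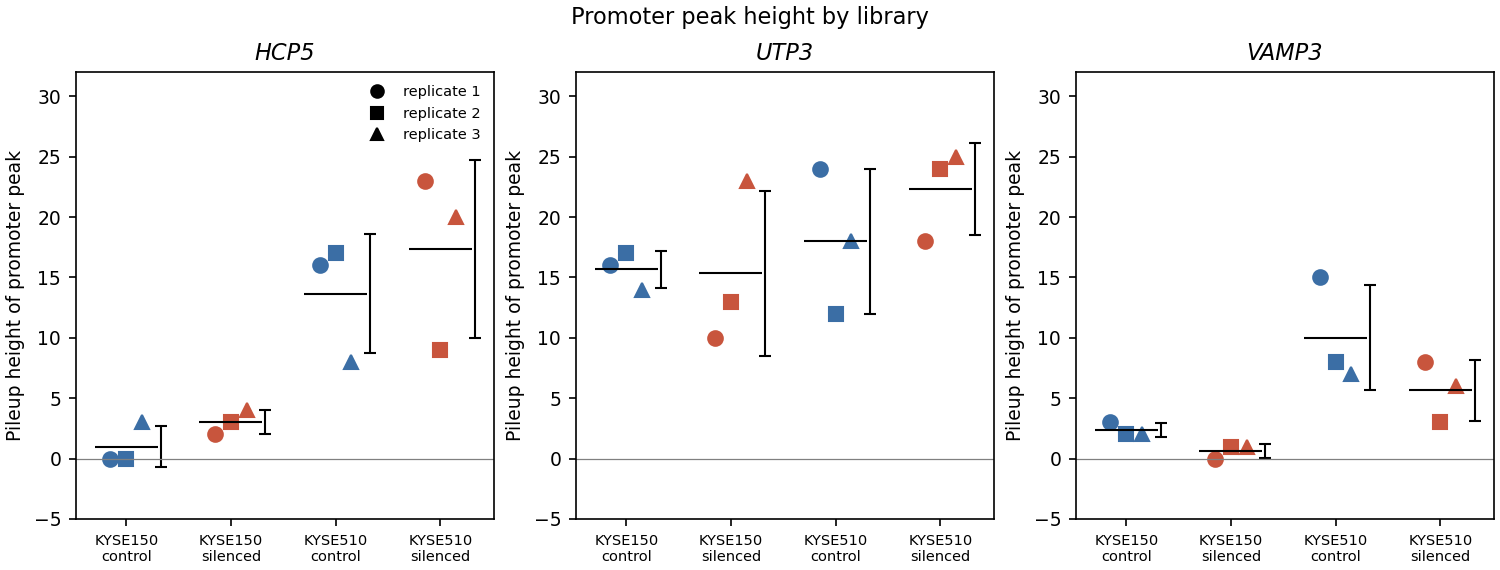
Pileup height of the promoter peak (vertical axis) in each library of KYSE150 and KYSE510 for HCP5, UTP3 and VAMP3, with control in blue, silenced in red and symbols for replicates. Black lines are group means and the bars beside them SD (n = 3), and a library without a peak is drawn at 0. Only VAMP3 in KYSE150 has groups that do not overlap, at 2 to 3 in control and 0 to 1 in silenced libraries.

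Because heights are not comparable between libraries, each promoter was also placed among all genes of its own library. The height of every promoter was ranked within a library over one common set of genes, the rank was turned into a normal score, and the scores were compared with limma, whose p-values were adjusted by Benjamini-Hochberg over all genes tested. A score of 0 is the middle of the genes in that library. The common set was the genes with a promoter peak in all 6 libraries of a line, which in KYSE150 included UTP3 but not HCP5 or VAMP3.

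In KYSE150 the UTP3 score was 0.30, 0.54 and 0.13 in control and -0.23, 0.26 and 1.34 in silenced libraries. Silenced library 3 was the highest of the 6 and silenced library 1 the lowest. The change was 0.13 ± 0.36 (SE; 95% interval -0.64 to 0.90; limma adjusted p = 0.986), and without silenced library 3 it was -0.31. The spread of UTP3 within groups exceeded that of 90.5% of the genes tested in KYSE150 and of 49.3% of those tested in KYSE510. In KYSE510 the spread of HCP5 exceeded that of 92.3% of genes and the spread of VAMP3 that of 91%. None of the 7743 genes tested in KYSE150 passed an adjusted p of 0.05 (0%), while 366 had an unadjusted p under 0.05 (4.73%).

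In KYSE510 the UTP3 score was 0.38, -0.22 and 0.35 in control and 0.29, 0.77 and 0.69 in silenced libraries. The change was 0.42 ± 0.25 (SE; 95% interval -0.14 to 0.98; limma adjusted p = 0.891). The HCP5 score was -0.19, 0.26 and -0.82 in control and 0.63, -0.58 and 0.37 in silenced libraries, so the groups overlapped over most of their range. Its change was 0.39 ± 0.37 (SE; 95% interval -0.43 to 1.21; limma adjusted p = 0.954). It was 0.11 without control library 3 and 0.75 without silenced library 2. The VAMP3 score was -0.28, -0.80 and -1.01 in control and -0.84, -2.26 and -1.39 in silenced libraries. Silenced library 1 lay between the second and the third control. The VAMP3 change was -0.80 ± 0.36 (SE; limma unadjusted p = 0.05, adjusted p = 0.828), and 2.22% of the 8746 genes tested changed by more in either direction. Without silenced library 2 it was -0.42. Over all 13773 genes with a peak in 1 or more libraries it was -0.39 ± 0.22 (SE; limma adjusted p = 0.9), and 14% of genes changed by more. None of the 8746 genes passed an adjusted p of 0.05 (0%), and 525 had an unadjusted p under 0.05 (6%). Over the 13773 genes 2 passed after adjustment.

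With the promoter window, HCP5 and VAMP3 were fitted in KYSE150 over all genes with a promoter peak in 1 or more libraries, where a missing peak counted as 0. In that fit of 18513 genes the HCP5 change was 0.68 ± 0.27 (SE; 95% interval 0.06 to 1.29; limma unadjusted p = 0.0342, adjusted p = 0.71). The VAMP3 change was -0.39 ± 0.24 (SE; 95% interval -0.92 to 0.14; limma adjusted p = 0.71), and without silenced library 1, which had no peak, it was -0.15. With 1000 bases either side of the start, VAMP3 had a peak in all 6 libraries and changed by -0.49 ± 0.21 (SE; limma adjusted p = 0.979). In silenced library 1 that peak was not the promoter peak. It ran from -1150 to -951, across the edge of the wider window, with a height of 1 and an FDR of 0.491. HCP5 passed only before adjustment. At an unadjusted p under 0.05, 278 of the 18513 genes of that fit were higher and 267 lower, and 0 passed after adjustment. The missing HCP5 peaks in control libraries 1 and 2 enter its change as ties with every other gene at 0.

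**Figure D2:**
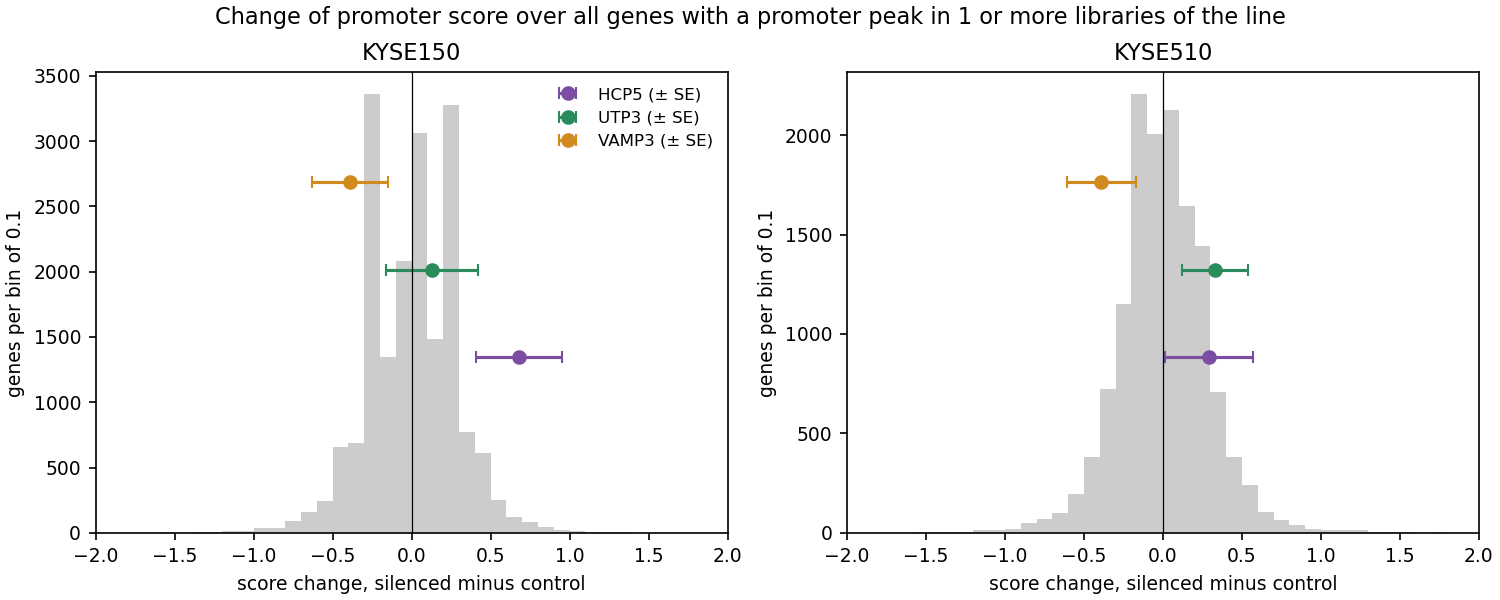
Grey bars count genes (vertical axis, per bin of 0.1) by their change of promoter score, silenced minus control (horizontal axis), over 18513 genes in KYSE150 and 13773 in KYSE510. Points are the 3 genes with SE, at arbitrary heights; VAMP3 lies at -0.39 in each line, and HCP5 in KYSE150 lies furthest out of the 3, at 0.68.

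The place of each promoter was also compared between the lines. Among all 27305 genes with a window, the UTP3 promoter stood at the 82.4 to 97.4 percentile of its library in KYSE150 and at the 80.5 to 92.9 percentile in KYSE510. Where a peak was called, HCP5 stood at 64.8 to 72.6 in KYSE150 and at 72.7 to 91.4 in KYSE510. VAMP3 stood at 60.6 to 66.2 in KYSE150 and at 61.7 to 79.7 in KYSE510. In control libraries the UTP3 score was higher in KYSE150 by 0.24 ± 0.26 (SE; 95% interval -0.33 to 0.81; limma adjusted p = 0.559), in a comparison where 18.7% of 7031 genes passed. Over the 19770 genes with a peak in 1 or more of the 12 libraries, the difference was -1.14 ± 0.31 for HCP5 (SE; limma adjusted p = 0.11). For VAMP3 it was -0.33 ± 0.10 (SE; limma adjusted p = 0.154). Neither passed, but each result turned on 1 choice. Without KYSE150 control library 3, the only control library of that line with an HCP5 peak, the HCP5 difference was -1.45 ± 0.20 (SE; limma adjusted p = 0.0245). The KYSE150 control libraries then left had no HCP5 peak, so HCP5 was tied at 0 in each. With all control libraries in, 1707 of the 19770 genes passed. With a window of 1000 bases either side of the start, the VAMP3 difference was -1.24 ± 0.25 (SE; limma adjusted p = 0.00817). In that fit 1744 of 9238 genes passed. VAMP3 was in it only through the peak of height 1 at the window's edge in KYSE150 silenced library 1. Whether silencing acted differently in the lines was tested as an interaction, which 0% of 7031 genes passed, with UTP3 at 0.31 ± 0.48 (SE; 95% interval -0.71 to 1.33; limma adjusted p = 0.993). Over all genes with a peak, the interaction was -0.43 ± 0.38 for HCP5 (SE; limma adjusted p = 0.747) and 0.12 ± 0.29 for VAMP3 (SE; limma adjusted p = 0.922).

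Within a library the 3 promoters were also set against each other. The UTP3 peak was higher than the VAMP3 peak in 12 of 12 libraries and higher than the HCP5 peak in 10 of 12. HCP5 was the higher of the pair in KYSE510 control library 2 and silenced library 1. The HCP5 peak was higher than the VAMP3 peak in 10 of 12, the exceptions being KYSE150 control libraries 1 and 2, where HCP5 had no peak.

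**Figure D3:**
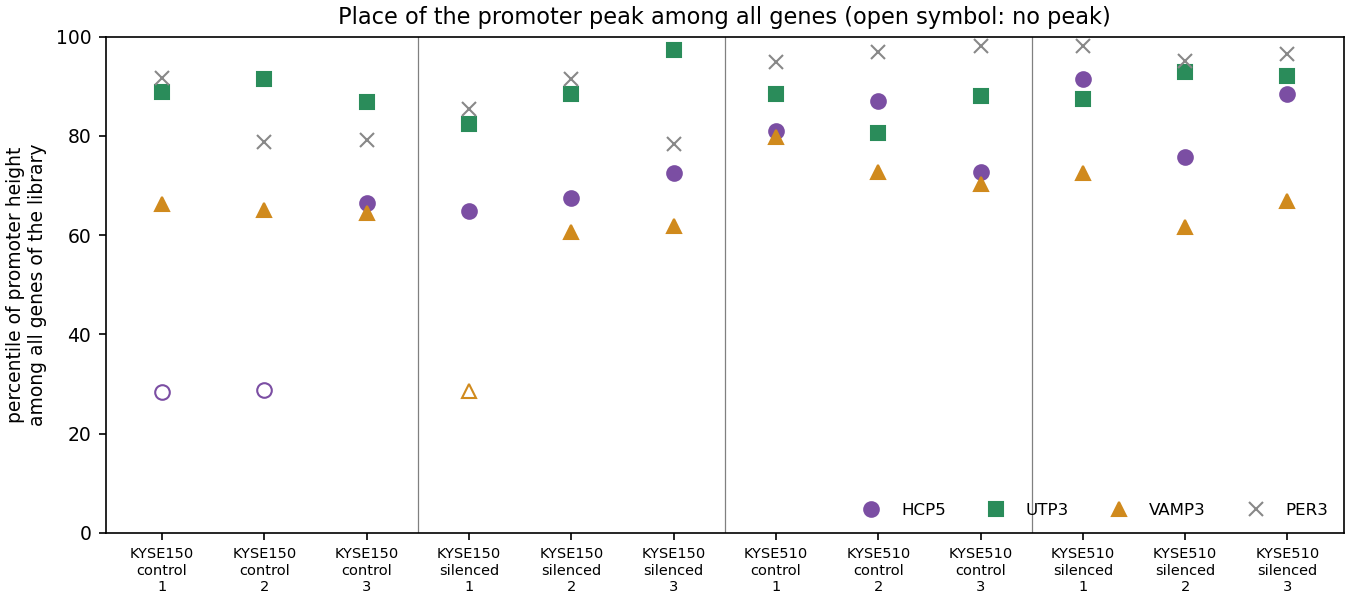
Percentile of the promoter height among all 27305 genes of a library (vertical axis) for HCP5, UTP3, VAMP3 and the neighbour PER3 in the 12 libraries (horizontal axis); open symbols have no peak. UTP3 stays between 80.5 and 97.4, while HCP5 reaches 91.4 only in KYSE510.

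Ranks within each library's own peak list describe the same peaks against lists of unequal length, so they show no change between libraries. The UTP3 promoter peak ranked 1301 to 12575 by height in KYSE150 and 5058 to 17371 in KYSE510. The HCP5 peak ranked 29387 to 58302 in the 4 KYSE150 libraries that had one and 5712 to 28610 in KYSE510. The VAMP3 peak ranked 43770 to 114945 in KYSE150 and 15850 to 82919 in KYSE510. The 2 VAMP3 peaks of silenced KYSE150 libraries, at ranks 114945 and 95838, shared their height of 1 with most of their lists.

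The promoter peaks differed in where they sat and how long they were. UTP3 peaks were 407 to 889 bp long and shared 387 bp in all 12 libraries, chr4:70688193-70688579, from -339 to 47 relative to the gene start. The ETS motif at -21 lies inside that shared stretch. HCP5 peaks were 223 to 383 bp long and shared 184 bp in 10 libraries, chr6:31462985-31463168, from -195 to -12. That stretch holds both CCAAT boxes and ends before the gene's first base. VAMP3 peaks were 200 to 796 bp long and shared 80 bp in 11 libraries, chr1:7771215-7771294, from -81 to -2. That stretch covers the ETS motif at -75 and the GC box at -51. The VAMP3 peaks of the silenced KYSE150 libraries were 200 bp long, the shortest length in any list, against 299, 211 and 324 bp in the controls.

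**Figure D4:**
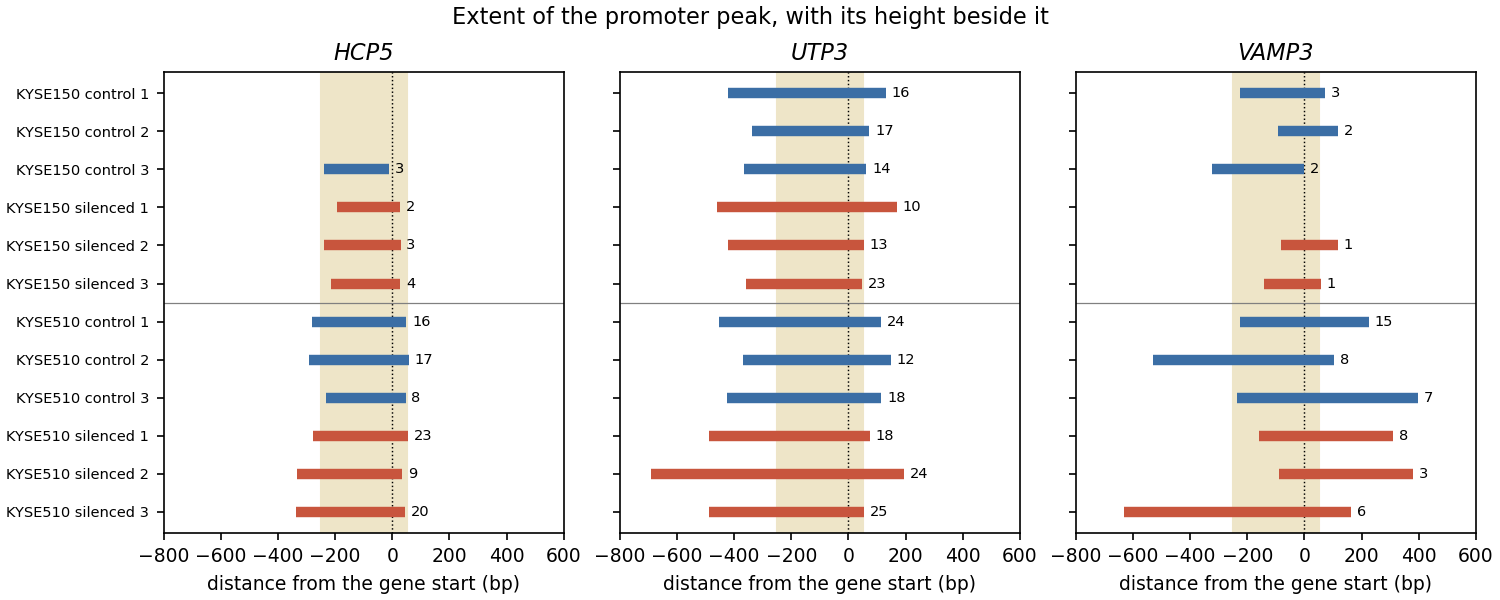
Extent of each promoter peak as distance from the gene start in bp (horizontal axis) for the 12 libraries (rows), with control in blue, silenced in red, the height printed beside each bar and the promoter window shaded. UTP3 peaks share 387 bp across all 12 libraries, while VAMP3 peaks share 80 bp across 11.

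Beyond the promoters, KYSE150 and KYSE510 differed in what was called in the windows. In KYSE150 the number of peaks within 10 kb of HCP5 was 1, 3 and 6 in control and 7, 4 and 6 in silenced libraries (exact permutation p = 0.3). Around UTP3 it was 3, 3 and 2 against 3, 4 and 4 (exact permutation p = 0.3). Around VAMP3 it was 3, 5 and 3 against 5, 5 and 6 (exact permutation p = 0.3). All 3 windows thus had a higher mean number after silencing, none beyond the spread between libraries. The extra peaks were mostly of height 1: all 23 peaks other than the promoter peak around HCP5, 10 of 13 around UTP3 and 15 of 22 around VAMP3. Most were called in a single library, namely 11 of 16 regions near HCP5, 4 of 7 near UTP3 and 11 of 14 near VAMP3. At an FDR of at most 0.05 the difference in number was 0.667 for HCP5, -0.667 for VAMP3 and 0 for UTP3. In KYSE510 every library had 2 peaks near HCP5 and 1 near UTP3, and VAMP3 had 3, 3 and 2 in control and 2, 2 and 2 in silenced libraries (exact permutation p = 0.4).

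One region away from the promoters recurred near HCP5. In KYSE510 it lay at chr6:31474392-31474819, past the lncRNA gene HCG26, with heights of 5, 4 and 7 in control and 7, 10 and 5 in silenced libraries. The groups overlapped. Its score change was 0.38 ± 0.36 (SE; 95% interval -0.43 to 1.20; limma adjusted p = 0.844), in a fit where 0% of 48299 merged regions passed. In KYSE150 a nearby region at chr6:31475170-31475680 had a height of 1 in all 3 silenced libraries and no peak in the controls (exact permutation p = 0.1), and 1 is the lowest height in these lists. The share of KYSE150 merged regions with every silenced height above every control height was 0.294%, or 6777 of 2301668, a total that includes regions called in 1 library. The KYSE150 region that overlaps the KYSE510 one, chr6:31474401-31475004, had a height of 1 in 1 control and 2 silenced libraries (exact permutation p = 1). The region before it, chr6:31474070-31474354, had a height of 1 in 2 control and 0 silenced libraries (exact permutation p = 0.4). UTP3 had no other peak in KYSE510, and its highest other peak in KYSE150 had a height of 4.

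Near VAMP3 the strongest peak was not its own promoter but that of PER3, a circadian clock gene whose start lies 12995 bp downstream of the VAMP3 start. PER3 was higher than VAMP3 in 12 of 12 libraries. Its heights in KYSE150 were 19, 8 and 9 in control and 12, 16 and 6 in silenced libraries, and in KYSE510 38, 36 and 44 against 46, 29 and 37. The groups overlapped in each line. The merged region holding it changed in score by 0.10 ± 0.35 in KYSE150 (SE; limma adjusted p = 0.975; 0% of 45053 regions passed). In KYSE510 the region changed by -0.07 ± 0.27 (SE; limma adjusted p = 0.977). The end of CAMTA1 also lies in the VAMP3 window, but its promoter does not. In KYSE150 that promoter had heights of 32, 31 and 31 without silencing and 22, 25 and 22 with it (exact permutation p = 0.1, the smallest it can give). All silenced heights lay below all control heights at 5.59% of 18513 genes in that line, where median promoter heights were lower on average after silencing. The CAMTA1 score, read against the other genes of each library, changed by -0.19 ± 0.25 (SE; limma adjusted p = 0.984).

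**Figure D5:**
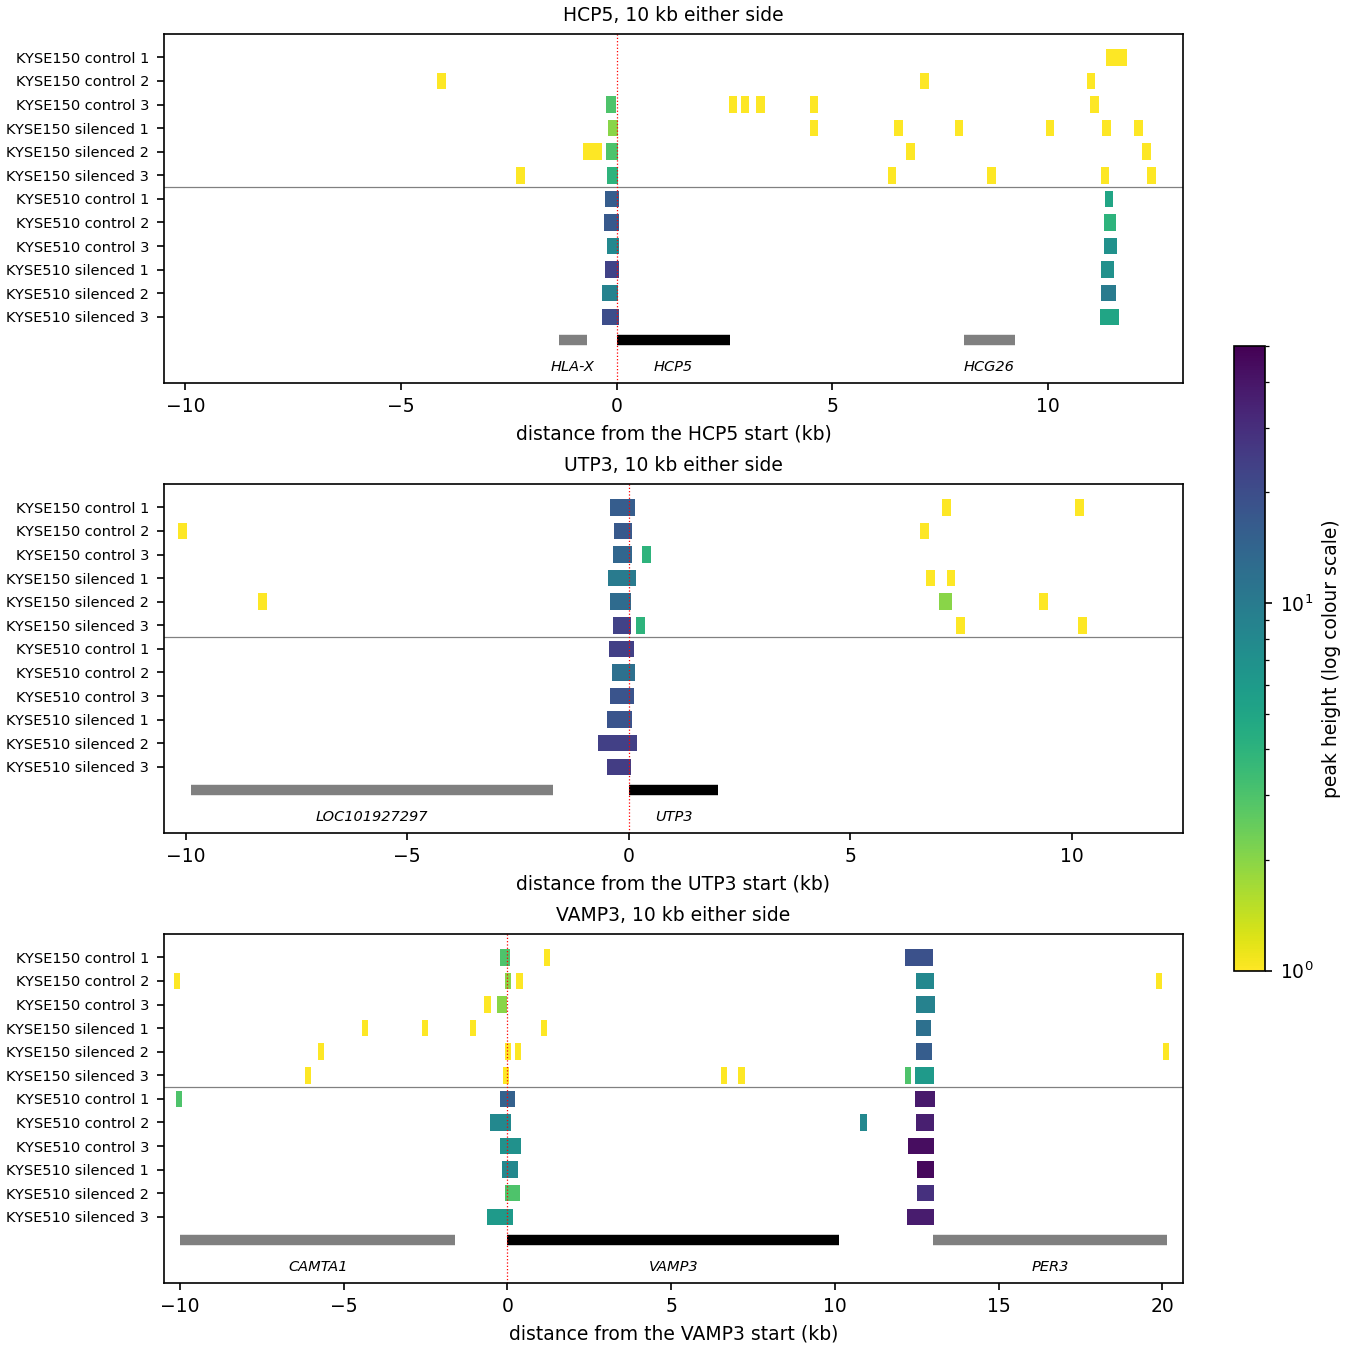
All 105 peaks by distance from the start of HCP5, UTP3 or VAMP3 in kb (horizontal axis) in the 12 libraries (rows), coloured by Pileup height on a log scale, with genes as bars at the foot. KYSE150 libraries carry scattered peaks of height 1, while KYSE510 libraries carry 1 region besides the promoter near HCP5 and none near UTP3.

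The 10 kb limit fell among low peaks. Just inside it lay peaks of height 1 at 9672 bp from HCP5, 9973 bp from UTP3 and 9994 bp from VAMP3. Just outside lay peaks of height 1 at 10752 bp from HCP5, 3 at 10829 bp from UTP3 and 1 at 10300 bp from VAMP3.

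The pathways of the 3 genes gave no call in either line after adjustment. Since 0% of 7743 genes passed in KYSE150 and 0% of 8746 in KYSE510, no list could hold a call. Before adjustment 4.73% of those genes in KYSE150 and 6% in KYSE510 had a p under 0.05. Of 35 small subunit processome genes listed as partners of UTP3, 22 were tested in KYSE150 and 23 in KYSE510, and 0 rose and 0 fell at a limma adjusted p of 0.05 or at an unadjusted one. Their median score change was -0.03 and 0.01, and the smallest p belonged to IMP3 in KYSE150 (-0.38; limma adjusted p = 0.984) and KRR1 in KYSE510 (-0.40; limma adjusted p = 0.894). Of 21 SNARE partners and relatives of VAMP3, 13 and 16 were tested and 0 passed after adjustment. Before adjustment 1 was higher and 1 lower in KYSE150, against 4.73% of all genes there and 6% in KYSE510. The higher, named after its value was seen, was VAMP8 at 0.61 (limma adjusted p = 0.984). The lower was STX16, a syntaxin of the trans-Golgi network, at -0.69 ± 0.29 (SE; limma adjusted p = 0.984). The smallest p of this list in KYSE510 was that of VTI1A, at -0.54 ± 0.33 (SE; limma adjusted p = 0.894). The SNARE medians were 0.01 and -0.13. Of 12 MYC network genes, 6 and 7 were tested with 0 passing and medians of -0.02 and 0.08. MAX (0.28) in KYSE150 and MXD3 (-0.48) in KYSE510 had the smallest p. Of 12 neighbours of HCP5 in the class I region, 4 and 7 were tested and 0 passed after adjustment, with medians of -0.03 and 0.16. Among those neighbours 2 were higher before adjustment in KYSE510, where 273 of all 8746 genes were. They were NFKBIL1 and ATP6V1G2, at 0.85 ± 0.26 (SE; limma adjusted p = 0.701). These 2 genes had identical heights in all 12 libraries, so the same values were counted for each, as for CCHCR1 and TCF19. The median over all genes was -0.000 in KYSE150 and -0.002 in KYSE510.

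The genes whose promoter percentiles over the 12 libraries lay closest to each member, by Euclidean distance, were LINC02202 (20.5), MYO10 (26.3) and LSG1 (27.4) for HCP5. For UTP3 they were ZNF823 (9.08), PROM2 (10.9) and MTERF2 (11.2). For VAMP3 they were MID2 (14), GIT2 (18.6) and MARCHF8 (19.7). The median distance of all genes was 143.3 from HCP5, 191.2 from UTP3 and 119.3 from VAMP3.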

How the data were processed

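ATAC-seq peak tables of 12 libraries were analysed. Per the submitters' processing notes, the genome was GRCh38 and the tools were Trimmomatic 0.36, Bowtie2 2.2.6, Picard 2.8.2, MACS2 2.1.1 and bedtools 2.25.0; settings are not given in the sources used here. The authors deposited 1 table per library, with peaks named separately in each. Per the file headers, Pileup is a signal, here a whole-number height, and fold enrichment is a ratio to local background. The deposited p-value of a peak, which reached at most 0.00987, and its FDR come from the authors' caller. Coordinates count from 1.

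Peaks within 10 kb of the RefSeq spans were taken. A promoter height is the highest Pileup overlapping the window of 250 bases before to 50 after the start by 1 bp or more. Of 27305 genes, 22114 have 1 listed start, including the 3 members; for the others the first listed start was used. The highest peak over all listed starts was tried after results had been seen and is kept as an alternative, not as the main setting. Scores are normal scores of within-library ranks, tested with limma 3.58.1 in R 4.3.3, without a replicate term. HCP5 and VAMP3 lacked a promoter peak in 1 or more KYSE150 libraries, so the planned fit could not hold them and an all-genes fit was used. Heights and peak numbers were compared by two-sided exact permutation tests (Python 3.11.15, scipy 1.17.1). The limma fit of silencing within a line, on genes with a peak in all 6 libraries, was run on simulated scores with known shifts. The other fits were not simulated.

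The members, gene lists, motifs and tests were chosen with earlier results of these data known. Named genes are the members, genes within their windows, MYC, the smallest p of a list, and the 3 promoters closest to each member.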

Additional observations from a re-analysis of the deposited data

How the results depend on the processing

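Depth is unknown and low heights limit HCP5 and VAMP3 in KYSE150, where 1 fragment changes a call. Alternatives for the 6 height differences, and the use of all listed starts, were chosen after seeing the data. With all listed starts the number of calls was 0, 0 and 0 for silencing in KYSE150, in KYSE510 and for the interaction, 1452 between lines, and the 4 changes refitted, UTP3 in each line and HCP5 and VAMP3 in KYSE510, kept their values to 2 decimals (VAMP3 -0.80, adjusted p = 0.826). The members have 1 listed start each, so only the genes around them differ. The difference in peak number in KYSE150, 1 for UTP3 and 1.67 for VAMP3, became 0 and -0.667 at an FDR of at most 0.05, and 0 for each at a height of at least 3; that for HCP5, 2.33, became 0.667 and 0.333. The UTP3 height difference in KYSE150 (-0.333) was 0.204 as fold enrichment and 0.282 over the library median. Calls in KYSE510 promoters were 1 with fold enrichment and 2 over all genes; calls between lines were 319 with fold enrichment; interaction calls were 2 over all genes. The VAMP3 interaction (0.12) was -0.32 with 1000 bases either side of the start, where its line difference passed (-1.24). With that window 1744 of 9238 genes passed between lines. The VAMP3 neighbour region in KYSE510 changed by 0.00 with fold enrichment.

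Leaving out 1 library at a time, the UTP3 height difference in KYSE150 ran from -4.17 to 2.33, turning positive without control 2 (0.333), silenced 1 (2.33) or silenced 2 (0.833). The UTP3 score change there ran from -0.31 to 0.47, negative without silenced 3, and its interaction from -0.05 to 0.77, negative without silenced 1. The VAMP3 interaction ran from -0.12 (without KYSE150 silenced 1) to 0.25. The HCP5 line difference ran from -1.45 to -0.98. The VAMP3 height difference ran from -1.83 to -1.33 in KYSE150 and from -5.83 to -1.83 in KYSE510, and its score change from -0.52 to -0.15 and from -1.13 to -0.42. The UTP3 height difference in KYSE510 ran from 1.33 (without control 2) to 7.33 (without control 1). The HCP5 height difference ran from 1.5 to 3 in KYSE150 and from 0.833 to 7.83 in KYSE510, where its score change ran from 0.11 to 0.75. The region near VAMP3 ran from -0.12 to 0.43 in KYSE150 (-0.08 without control 2, -0.04 without control 3, -0.12 without silenced 2) and from -0.21 to 0.07 in KYSE510 (0.05 without control 3, 0.07 without silenced 2). Calls ran from 0 to 1 in KYSE150 promoters and for the interaction (1 without KYSE150 control 1), and from 763 to 993 between lines (763 without KYSE510 control 1, 856 without control 3). The cause of these shifts was not tested.

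With a replicate block on genes with a peak in all 6 libraries, 0 promoters were called in either line. Over all genes the block took calls from 2 to 1 in KYSE510, from 2 to 0 for the interaction and from 1707 to 857 between lines. The UTP3 change stayed at 0.13 in KYSE150. Same-numbered libraries deviated together with correlations of 0.00621 to 0.0468, and each exceeded the correlations with other numbers. The labels do not say whether libraries of the same number were handled together, and correlations this small cannot decide it.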

Other observations

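MYC, named in the series title, was read over its gene span rather than over a promoter window. The highest peak overlapping it had heights of 12, 14 and 11 in control and 10, 13 and 15 in silenced KYSE150 libraries. The peak of silenced library 3 lay 7703 bp from the start of the span and those of the other libraries within 773 bp of it. These heights thus come from different sites, and no test of them is given. In KYSE510 the heights were 177, 108 and 122 in control and 131, 124 and 149 in silenced libraries. The means were 135.7 ± 36.5 and 134.7 ± 12.9 (SD, n = 3 each; two-sided exact permutation p = 1). The groups overlapped. The local background under these peaks, solved from height and fold enrichment, was 15.7 to 23 in KYSE510 and 0.48 to 1.38 in KYSE150.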
